A study of Microtus ochrogaster with 2 samples.

Results

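Solitary peaks of H3K4me1 deep inside long genes were followed in the retrosplenial cortex, an area near the midline of the cortex, in prairie voles (Microtus ochrogaster). A peak belonged to this set when it was under 1000 bp wide, had no other listed peak within 12.5 kb edge to edge, and had its midpoint inside a placed protein-coding gene and over 25 kb from both ends of every placed protein-coding gene. Of 36238 listed peaks, 2664 met the rule, in 1176 host genes. Only 27022 peaks lay on the 28 sequences with usable gene positions in assembly MicOch1.0. Of these, 24800 were under 1000 bp, 9973 of those were solitary, 5591 of those had their midpoint in a gene, and 2664 were deep enough.

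The tissue came from male voles aged 30 to 40 days, and the series names 8 of them. An antibody against H3K4me1 was used for the 1 ChIP library, and the 1 input library had none. The sources used here do not say how the animals were divided between them. No genotype or treatment is named. The authors compared the libraries in 1 peak list, with 37430265 ChIP and 47554684 input fragments after their filter, so there is no replicate check. No test between groups was possible, and all intervals cover counting error only.

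H3K4me1 is histone H3 with a single methyl group on lysine 4. In mammals it is laid down mainly by the methyltransferases Kmt2c and Kmt2d, and it marks enhancers, both active ones and ones that are poised. Many enhancers of neurons lie within introns, and many of the longest genes in mammals encode proteins of synapses, cell adhesion and axon growth. The gene table used here holds no exons and no strand, so intron and exon, and the start and the end of transcription, were not told apart. No genome sequence was used here, so the bases under the peaks are not shown.

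The tissue label was set against marker genes of 6 cell types, counting a gene as marked when a peak touched it or its 5 kb flanks. Of all 13975 placed protein-coding genes, 46.0% were marked in this way. Peaks marked 7 of 9 placed markers of excitatory cortical neurons (Camk2a, Tbr1, Nrgn, Mef2c, Cux2, Rorb and Bcl11b) and 2 of 12 of inhibitory neurons (Erbb4 and Sox6). They marked 4 of 7 for astrocytes, 7 of 11 for the oligodendrocyte lineage, 4 of 9 for microglia and 3 of 9 for endothelium and pericytes. With so few markers a list, and genes of unequal length among them, these counts do not tell the cell types apart. Markers with bases over 25 kb from every gene end, which could hold a solitary deep peak, numbered 5 for excitatory neurons, 3 for inhibitory neurons, 4 for astrocytes, 3 for the oligodendrocyte lineage and 6 for endothelium and pericytes, while none of the microglia markers could. Among the markers, solitary deep peaks lay in Gpc5 (12 of them), Erbb4 (6), Sox6 (5) and Slc4a4 (2), and 1 each lay in Cux2, Rorb, Bcl11b and Emcn. Of all 3382 genes that could host, 34.8% held at least 1. Gpc5, Erbb4 and Sox6 are long, at 1182, 1055 and 556 kb. Genes that could host held a mean of 10.5 such peaks when over 1000 kb long and 5.22 at 500 to 1000 kb. These counts are thus not set apart from gene length. A mixed tissue does not show which cells carry a peak, and fewer marked cells cannot be told apart from less mark per cell.

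Host genes were long, in part because the rule asks for it, since a gene under 50 kb has no base 25 kb from both of its ends. Of 13975 placed protein-coding genes, 3382 had at least 1 base over 25 kb from every gene end and so could host such a peak. Of these, 1176 did, or 34.8% (95% Wilson interval 33.2 to 36.4%). The hosts had a median length of 184.8 kb (95% interval of the median 172.1 to 192.5 kb; quartiles 112.1 and 303.0 kb). The 2206 genes that could host and did not had a median of 78.3 kb (76.6 to 81.0 kb), and all placed protein-coding genes had one of 18.0 kb.

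Hosts held 1 to 26 members. A total of 636 (54.1%, Wilson interval 51.2 to 56.9%) held 1, 240 held 2, 181 held 3 or 4, and 119 held 5 or more. The share with 1 was 44.4% when only peaks within 5000 bp ended solitude and 47.3% at a depth of over 50 kb. The mean was 2.27 per host. The 26 hosts with 10 or more held 353 members, 13.3% of the set, and the 119 hosts with 5 or more held 939, or 35.2%. Hosts with 1 member had a median length of 125.6 kb, and hosts with 5 or more had one of 704.4 kb. Across the 3382 genes that could host, Spearman's rho between length and the number of members was 0.61. It describes genes of 1 peak list that share its libraries, and longer genes offer more deep bases.

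Lsamp, which encodes an adhesion protein of the neuronal membrane, held the most members, 26 in a gene of 2109 kb on chromosome 2. A peak was counted to a gene when its midpoint lay inside it. The members' fold enrichment in Lsamp, which is the authors' ratio of ChIP fragments at the summit to a background set from the input, ran from 2.21 to 3.37 with a median of 2.50. Summits held 17 to 29 ChIP fragments. Neighbouring members were 12.9 to 220.5 kb apart, with a median of 72.8 kb. Lsamp also held 28 peaks that were not members, of median fold 2.61, so members and other peaks there had similar folds.

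Rbfox1, a splicing regulator of neurons, and Dlg2, a scaffold protein of the postsynaptic density, followed with 21 members each. Rbfox1 spans 1689 kb on chromosome 7, and its members had a median fold of 2.90 (range 2.11 to 4.08). Dlg2 spans 1687 kb on chromosome 22, and its members had a median fold of 2.77 (range 2.25 to 3.58). In both genes members were the minority, 31.3% of 67 peaks in Rbfox1 and 28.4% of 74 peaks in Dlg2.

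Adhesion genes filled most of the next places. Tenm2, a teneurin that binds latrophilins across the synapse, held 19 members of 48 peaks, and Nrxn3, a presynaptic neurexin, held 18 of 40. Cntnap2, which helps to hold potassium channels beside the nodes of myelinated axons, held 17 of 24. Cdh18, a cadherin of only 769 kb, held 16 of 19, and Lrp1b, a receptor of the low-density lipoprotein receptor family, held 15 of 29. LOC101998191, to which the gene table gives no name, held 15 of 45. Auts2, a nuclear regulator of gene expression in developing neurons, held 13 of 22. The share of a gene's peaks that were members thus differed widely, from 28.4% in Dlg2 to 84.2% in Cdh18.

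**Figure D1:**
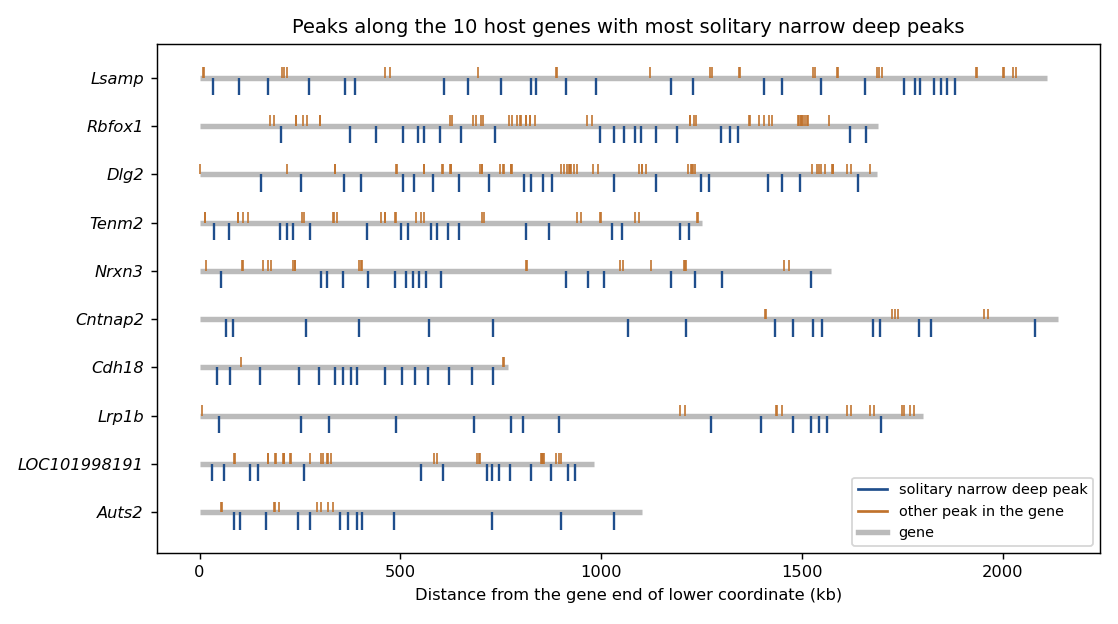
Peaks along the 10 host genes with most members, each drawn to scale from its end of lower coordinate (kb). Blue ticks are members and orange ticks are other peaks of the gene. In Cdh18 16 of 19 peaks are members, spread from 44.2 to 731.0 kb, while in Dlg2 and Rbfox1 members lie between groups of close peaks.

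Counts differed among the longest hosts. Tenm4, the longest host at 2360 kb, held 9 members, or 3.90 per Mb of deep interior, the bases over 25 kb from every gene end (exact Poisson interval 1.78 to 7.40). Cntnap2, the host nearest to it in length, held 8.15 per Mb (4.75 to 13.0), and these intervals overlapped. Lsamp, the next in length and the host with most members of all, held 12.6 per Mb (8.25 to 18.5), an interval above that of Tenm4. Tenm3, at 1722 kb, held 4, or 2.39 per Mb (0.652 to 6.13), against 16.5 per Mb (9.94 to 25.8) in its relative Tenm2. Lsamp and Tenm2 are among the 10 hosts picked for having most members. That choice favours high densities, so the separation of these intervals is partly set by it and is no test. Fhit, a tumour suppressor gene of 1441 kb at a fragile site, held 4, and Rbms3, an RNA-binding protein gene of 1318 kb, also held 4. In Fhit and Rbms3 the 4 members were the only peaks of the gene. Ctnna3, a catenin gene of 1291 kb, held 9 members of 13 peaks.

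Cdh18 had the highest density of the 10 hosts with most members, at 22.2 per Mb (12.7 to 36.1). Its members were 15.3 to 97.2 kb apart, with a median of 41.9 kb. They were ordinary in strength, with 17 to 28 fragments and a median fold of 2.68. Fbxl17, an F-box protein gene chosen after its values were seen, reached a similar density, with 9 members in 466 kb, or 21.6 per Mb (9.90 to 41.1). Some hosts with fewer members were denser. Tead1 and Akap2, also chosen after their values were seen, held 6 each, at 33.5 (12.3 to 73.0) and 31.5 per Mb (11.5 to 68.5).

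**Figure D2:**
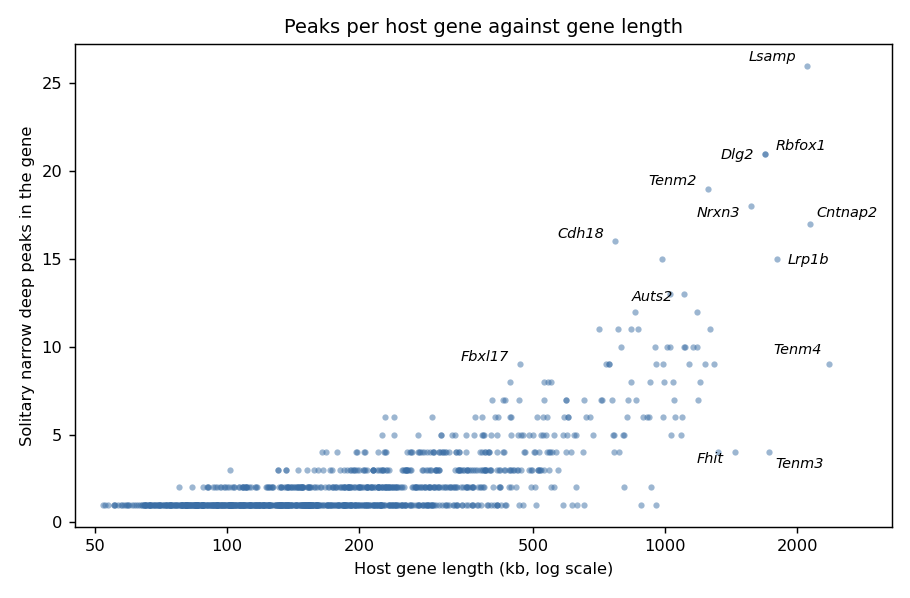
Members per host gene (vertical axis) against host gene length (kb, log scale), 1 point per host, 1176 in all. Lsamp stands highest with 26, while Tenm4 (9), Tenm3 (4) and Fhit (4) lie low for their length.

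At the other end, the 5 shortest hosts were Slc39a9, a zinc transporter gene (52.2 kb), Fubp3 (52.8 kb), Spns3 (53.4 kb), the growth factor receptor gene Fgfr1 (55.1 kb) and Tgfbrap1 (55.2 kb). Each held 1 member, since little of these genes is deep enough. The member in Spns3 (chr7:26404041-26404610, as deposited) had 24 fragments and 3.43-fold enrichment. In Spns3 and Fgfr1 the member was the only peak of the gene. Slc39a9 had 3 peaks in all, Tgfbrap1 had 3 and Fubp3 had 4.

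The share of genes that were hosts grew with gene length. Hosts made up 12.8% of 1714 genes of 50 to 100 kb (Wilson interval 11.3 to 14.5%), 41.7% of 1019 genes of 100 to 200 kb, and 78.8% of 520 genes of 200 to 500 kb. They made up 89 of 96 genes of 500 to 1000 kb and 32 of 33 longer ones. Per Mb of deep interior, members numbered 6.75 (exact Poisson interval 5.92 to 7.68) in genes of 50 to 100 kb and 6.75 (6.22 to 7.32) at 100 to 200 kb. They numbered 7.98 (7.49 to 8.49) at 200 to 500 kb, 8.38 (7.66 to 9.15) at 500 to 1000 kb and 8.48 (7.61 to 9.42) in genes over 1000 kb. The interval at 100 to 200 kb lay below those of the 3 longer classes. Over all 347.0 Mb of deep interior there were 7.68 (7.39 to 7.98).

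Narrow deep peaks with another peak within 12.5 kb followed another course. They numbered 6102, and their density was 21.9 per Mb (20.9 to 22.9) in genes of 100 to 200 kb but 9.19 (8.29 to 10.17) in genes over 1000 kb. Members therefore made up 21.2% (19.7 to 22.8%) of all deep peaks in genes of 100 to 200 kb and 46.3% (42.7 to 49.8%) in genes over 1000 kb, against 27.5% of the 9680 deep peaks in all. Solitude and crowding are linked by the rule, since peaks near each other cannot be members.

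**Figure D3:**
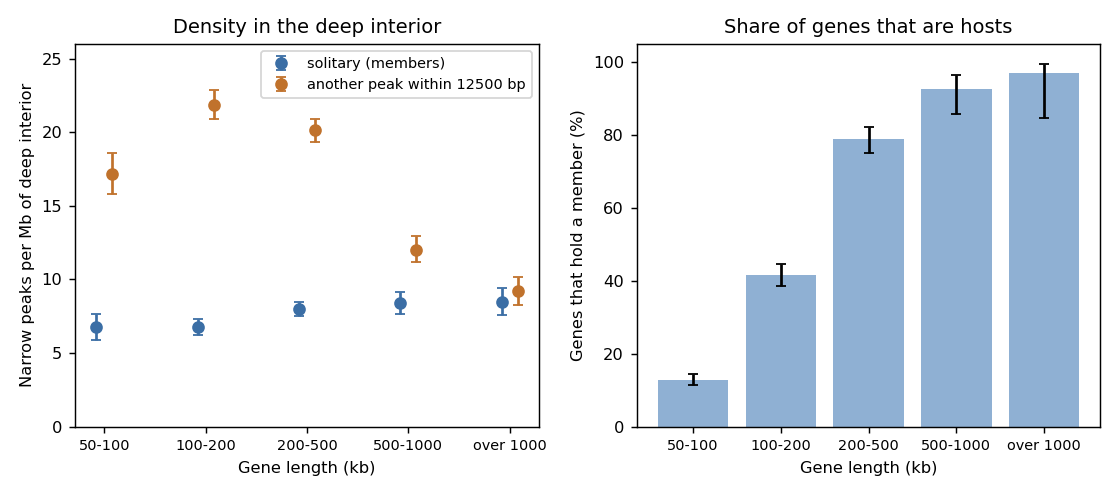
Left, narrow peaks per Mb of deep interior (vertical axis) by gene length (kb), for members and for peaks with another within 12.5 kb, with exact Poisson 95% intervals. Right, percent of genes that could host and hold a member, with Wilson 95% intervals. Member density lies between 6.75 and 8.48 per Mb while that of the other peaks reaches 21.9 and then 9.19.

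Gene interiors differed from the space between genes. Deep in genes there were 7.68 members and 17.6 crowded narrow peaks per Mb. Between genes, in 656.8 Mb also over 25 kb from every gene end, there were 3147 solitary narrow peaks, or 4.79 (4.63 to 4.96), and 2.70 (2.58 to 2.83) crowded ones per Mb. Peaks beyond the outermost gene of a sequence did not enter this density. The ratio of crowded to solitary peaks was thus above 1 in genes and below 1 between them. These spans include assembly gaps, whose part was not tested.

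The median member lay 76.7 kb from the nearest gene end (quartiles 42.2 and 150.9 kb). Density was 7.28 per Mb (6.81 to 7.78) at 25 to 50 kb, 7.35 (6.84 to 7.90) at 50 to 100 kb and 8.09 (7.44 to 8.79) at 100 to 200 kb. It was 9.10 (8.17 to 10.1) at 200 to 400 kb and 7.48 (6.26 to 8.88) beyond 400 kb. The interval at 200 to 400 kb lay above that at 25 to 50 kb, and the deepest band overlapped both. The deeper bands exist only in long genes, so depth and gene length cannot be told apart here. The deepest member, in Cntnap2 on linkage group LG12 (1178095 to 1178401), lay 1066 kb from the nearest end. It had 18 fragments and 2.63-fold enrichment, where the lowest summit of the list held 16 fragments.

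The median distance from a member to the next peak was 27.8 kb (quartiles 18.5 and 49.4 kb), and 221 members (8.30%) had none within 100 kb. The most isolated was the lone peak of Cntnap4, a relative of Cntnap2, on chromosome 4 (21003398 to 21003675), with no other peak for 794.0 kb. It had 20 fragments and 2.73-fold enrichment. Members with no peak within 100 kb had a median fold of 2.77 and a median width of 375 bp (interval 356 to 406 bp). Those with a peak 12.5 to 25 kb away had a median width of 397 bp (387 to 408 bp), and these intervals overlapped. Their median fold was the same. That fold is a value shared by many peaks, 19 fragments over the lowest background in the list. That background stood at 60.2% of the former and 35.2% of the latter, and its part was not tested. Within a host, 1488 pairs of neighbouring members were a median of 53.0 kb apart (quartiles 26.9 and 101.8 kb).

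Most hosts were not bare apart from their members. In 902 of the 1176, peaks that were not members lay in the gene too, and hosts held a median of 4 peaks and 8996 in all. In 274 hosts (23.3%, Wilson interval 21.0 to 25.8%) every peak was a member, and in 187 of these the member was the only peak. Those 187 genes had a median length of 129.3 kb. Their members had a median fold of 2.80, and 35.8% (29.3 to 42.9%) reached 3-fold, against 30.1% (28.3 to 32.0%) of members in hosts with other peaks. These intervals overlapped. Opcml, an adhesion gene of the same family as Lsamp, was the host with most peaks, with 85, of which 9 were members.

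Members were narrow and modest in strength. Their median width was 390 bp (interval 383 to 396 bp), with 256 bp, the caller's fragment size, as the lowest. The median summit held 21 fragments, and 87.3% of members held 16 to 25. The median fold was 2.77 (quartiles 2.57 and 3.04). Crowded narrow peaks at the same depth had a median width of 430 bp (424 to 437 bp), 22 fragments and a fold of 2.83 (2.82 to 2.85). Narrow solitary peaks outside genes and over 25 kb from every gene end, 3173 in number, had a median width of 368 bp (363 to 374 bp), 20 fragments and the same median fold as members. Enrichment of 3-fold or more was listed at 815 members, or 30.6% (28.9 to 32.4%), while 37.3% of all placed peaks reached it. Among crowded narrow deep peaks 36.1% (34.9 to 37.3%) did, and among the solitary ones between genes 29.5% (27.9 to 31.1%).

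The background from the input moved with these values. It stood at its lowest in the list, 6.23 fragments, at 40.0% of members, 28.1% of crowded deep peaks and 60.6% of solitary peaks between genes. Its part in the widths and folds was not tested. Among otherwise equal deep peaks, the 411 with a neighbour at 10 to 12.5 kb had a median fold of 2.81, and the 321 members with one at 12.5 to 15 kb had 2.77. The 56 members of 900 bp or more had a median fold of 3.11, and the 41 excluded peaks of 1000 to 1100 bp had 3.27. At 20 to 25 kb from a gene end, 274 excluded peaks had a median fold of 2.79, and the 238 members at 25 to 30 kb had 2.77.

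**Figure D4:**
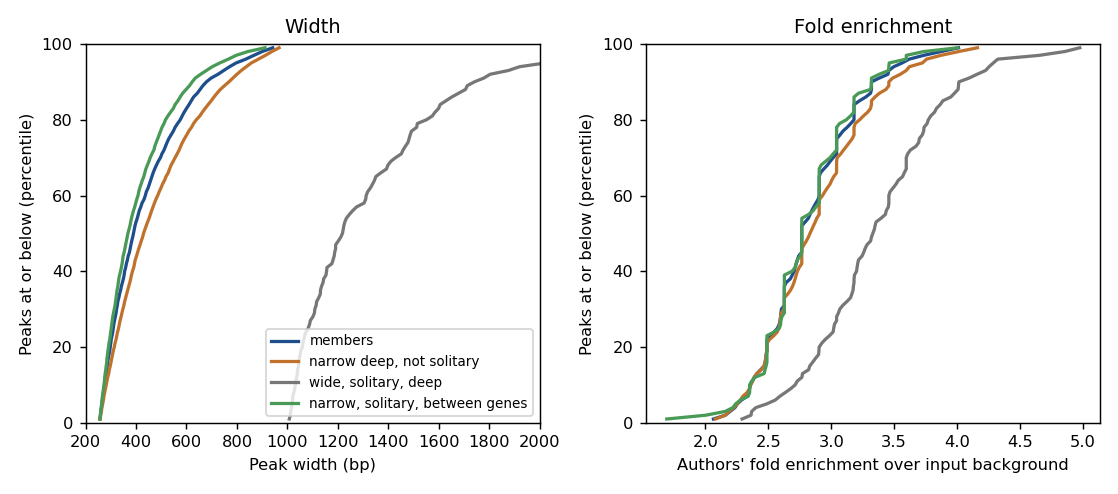
Percentile curves of peak width (bp, left, axis ending at 2000) and of the authors' fold enrichment (right) for members, for narrow deep peaks with a near neighbour, for wide solitary deep peaks and for narrow solitary peaks between genes. Member widths lie between those of the other narrow sets, with medians of 390, 430 and 368 bp, and the 146 wide peaks stand apart with a median fold of 3.33.

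Single members reached higher enrichment. The strongest was in Ncoa1, a coactivator of nuclear receptors, on linkage group LG3 (47167759 to 47168437). Its summit held 54 ChIP fragments over a background of 8.26, or 5.94-fold, 58.6 kb inside the gene, and the next peak was 23.3 kb away. Ncoa1 held 4 members among 11 peaks. The next were in Pigl, an enzyme of GPI anchor synthesis, on chromosome 7 (36112087 to 36112785), with 32 fragments and 4.56-fold, and in Dock1, an activator of the GTPase Rac, on chromosome 8 (27479750 to 27480516), with 32 fragments and 4.52-fold. Creb5, a transcription factor of the CREB family, followed with 31 fragments and 4.43-fold on linkage group LG3 (43620128 to 43620970), and no other peak lay within 317.5 kb. Ncoa1 thus stood well above the rest of the members.

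A member of Tenm2 on chromosome 7 (58648638 to 58649151) had 31 fragments and 4.39-fold enrichment. Bend5, Xkr6, the adenylyl cyclase gene Adcy2, the adhesion gene Kirrel3, Cyyr1 and the glypican gene Gpc5 each held a member of 30 fragments and 4.29-fold. These 6 tied from the sixth place on, so 11 are named. Enrichment of 4-fold or more was listed at 30 members (1.13%) and at 2.92% of all placed peaks, wide ones included. Among crowded narrow deep peaks 2.11% reached it, and among narrow solitary peaks between genes 1.04% did.

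A few members lay over a raised background. At 16 members, each in a different gene, the background was over 5 times the lowest of the list, at 38.6 to 431.7 fragments. These 16 had 62 to 660 fragments and folds of 1.40 to 2.42, with a median of 1.70. The most extreme was in Ralyl, an RNA-binding protein gene, on linkage group LG5 (5026140 to 5027094), with 660 fragments over 431.7. The one in Atxn10 on chromosome 15 (25741894 to 25742417) had 537 over 360.9. In Ralyl 11 of 12 peaks were members, so 10 members remained without this one. Others of the 16 lay in Cntnap2 (326 fragments over 233.0), Robo2 (169 over 69.3) and Tenm3 (146 over 81.5). The counts and densities given for those genes include them.

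Gene lists of 11 kinds were set against all genes that could host. Listed genes not found among the placed protein-coding genes did not enter, so the counts do not cover whole families. Only 31 of 46 listed adhesion genes, 27 of 43 channel genes and 42 of 59 transcription factor and cofactor genes were placed. Since listed genes were long, each count stands beside the number that the list would hold if each of its genes had the host share, or the member density, of its length class. The lists were chosen with earlier results of these data known.

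Synaptic and neuronal adhesion genes were hosts at 28 of 30, where the length classes give 25.1, and held 213 members, where they give 205.0. The listed genes had a median of 4.5 members and of 773.9 kb in length, against 0 members and 98.6 kb over all genes that could host. Nlgn1, a postsynaptic partner of neurexins, held 11 members of 18 peaks, Negr1, of the same family as Lsamp, 10 of 19, and Csmd3 9 of 12. Nrxn2, a relative of Nrxn3, held 1 member of 6 peaks in a gene of 114.8 kb in this annotation. That was 15.4 per Mb of deep interior, with a wide interval (0.390 to 85.9). Tenm1, on the X, and Nfasc, an organiser of nodes and axon initial segments, held none. Nfasc had 20 peaks, and Tenm1 had no peak.

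Cadherins and protocadherins were hosts at 11 of 17, where the length classes give 10.6. After Cdh18 came Pcdh15, known from the tip links of sensory hair cells, with 10 members of 12 peaks, and Pcdh7 and Cdh8 with 6 each. Cdh13, a cadherin without a transmembrane segment, spans 952.2 kb and held 1 member of 2 peaks, and Cdh4 (471.3 kb) held no peak. Cdh11, by contrast, held 20 peaks and no member. Axon guidance genes were hosts at 18 of 26, where the length classes give 16.7. Dcc, a netrin receptor, held 13 members of 20 peaks, the Slit receptors Robo2 and Robo1 held 10 each, and the ephrin receptor gene Epha6 held 6 of 15. Ntn1, which encodes a netrin, had no peak.

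Ion channel genes, auxiliary subunits included, were hosts at 21 of 27, where the length classes give 16.5. They held 71 members where the classes give 47.6, and their density of 11.9 per Mb (exact Poisson interval 9.26 to 14.96) was the highest of the 11 lists. The list was drawn up for voltage-gated and calcium-release channels. No ryanodine or inositol trisphosphate receptor gene was among the 27, and some of them, such as Kcnj3, Kcnj6 and Kcnt2, are not voltage-gated. The interval of the list's density lay above the 7.68 per Mb of all deep interior, with no test made. Cacna2d3, an auxiliary calcium channel subunit, and Kcnq5, a potassium channel of the M current, held 8 members each. The calcium channel gene Cacna1d held 5. In the shorter genes Kcnn2 (130.8 kb), a calcium-activated potassium channel, and Scn8a (108.8 kb), a sodium channel of axon initial segments, there were 3 and 2.

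Glutamate and GABA receptor genes were hosts at 18 of 24, where the length classes give 14.8. The kainate receptor gene Grik2 held 6 members of 11 peaks, Gria1, an AMPA receptor subunit, 5 of 7, and the GABA receptor subunit gene Gabrg3 5 of 8. Grin2a, an NMDA receptor subunit, had 36 peaks and 3 members, and Gabbr2, a GABA receptor coupled to G proteins, had 30 and 1. Synaptic scaffold genes were hosts at 16 of 24, where the length classes give 14.03. Magi2, a postsynaptic scaffold, held 11 members, and the active zone genes Erc2 and Pclo held 6 each. Pclo has 293.6 kb, so its density was 25.7 per Mb. Unc13c and Grip1 had no peak.

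Signalling genes of the cAMP, calcium and kinase list were hosts at 31 of 42, where the length classes give 30.2. Pde4d, a phosphodiesterase of cAMP, held 12 members of 24 peaks, Prkg1, a kinase activated by cGMP, 10 of 14, and the neuregulin gene Nrg3 9 of 21. Nrg1 held 6 of 7, whereas its receptor gene Erbb4 held 6 of 26. Ppp3ca, the catalytic subunit of calcineurin, held 36 peaks and no member, and the neurotrophin receptor gene Ntrk2 held 30 peaks and 1 member. Cytoskeletal genes were hosts at 18 of 26, where the length classes give 15.6, led by Nav3 and Ank2 with 7 each. Ank2, an ankyrin that ties membrane proteins to spectrin, had 39 peaks.

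RNA-binding protein genes of neurons were hosts at 12 of 18, where the length classes give 10.8. Beside Rbfox1, Celf2, a splicing regulator, held 5 members among 59 peaks, and Rbfox3, which encodes the neuronal marker NeuN, held 2 among 32. Transcription factors and cofactors of cortical neurons were hosts at 22 of 36, where the length classes give 21.0. Auts2, the nuclear receptor gene Rora (9 members of 18 peaks) and Tshz2 (8 of 11) led them. Foxp2, a forkhead factor of deep-layer cortical neurons, held 3, and no other peak.

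Some genes rich in peaks held no member. Tcf4, a helix-loop-helix factor of neurons, had 71 peaks, the most among genes that could host and held no member. The guanine exchange factor gene Trio had 45, Scaper 40, and Hivep2 and Zeb2, both zinc finger factors, 38 and 36. Their peaks lie close together, and the rule admits no such peak. Of the 2206 genes that could host and held no member, 1313 had at least 1 peak and 893 had none.

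Genes known from muscle, liver, skin or other tissues not sampled were the list with the lowest density. They were hosts at 14 of 24, where the length classes give 15.3, but held 27 members where the classes give 41.1. Their density was 5.17 per Mb (3.41 to 7.52), and that interval lay below the value for all deep interior, with no test made. In 12 of these 14 hosts every peak of the gene was a member, against 23.3% of all hosts and 0 to 2 hosts in each of the 10 other lists. This list had few peaks, 66 in its 24 genes, while the other lists held 111 to 605 each. A host with only 1 peak has all of its peaks as members by the rule, and the part of the low peak number was not tested. Among the 12 were Lama2, a laminin of muscle basement membrane, with 4 members, Sgcd, a sarcoglycan, with 3, and 2 each in the chloride channel gene Cftr and in Cubn, a receptor of kidney and gut. The epithelial factor gene Tp63 and the muscle gene Neb held 1 each. The muscle gene Ttn (270.4 kb) and the cilium gene Dnah5 (257.3 kb) had no peak. Some listed genes, such as Trpm3 and Col25a1, are known from brain as well. Trpm3 held 18 peaks and the listed gene Nebl held 24, with 2 members in each.

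**Figure D5:**
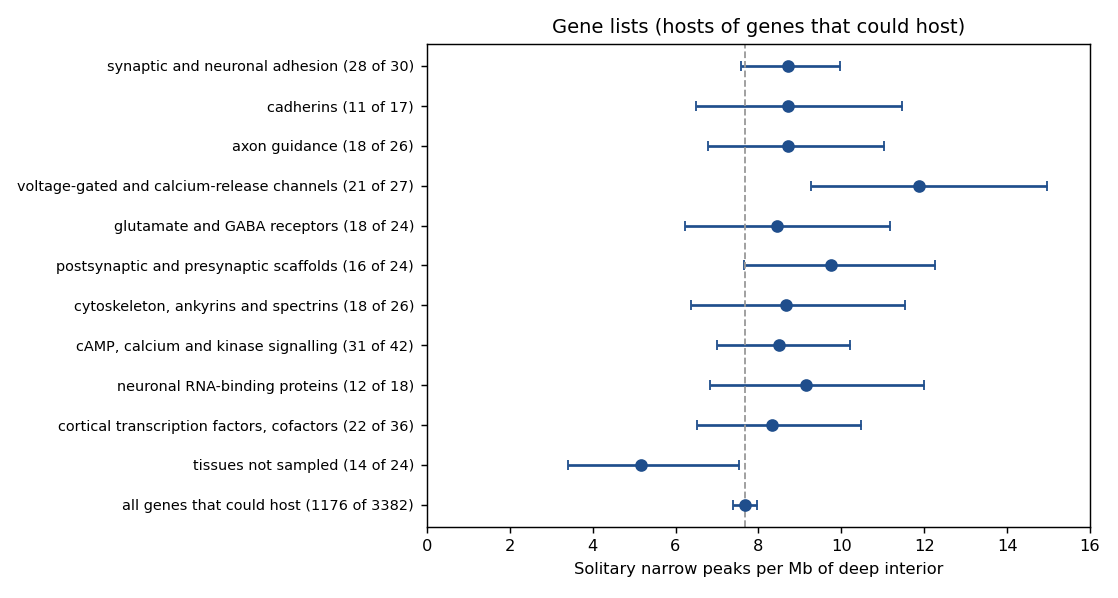
Members per Mb of deep interior (horizontal axis) for the 11 gene lists and for all genes that could host, with exact Poisson 95% intervals. Beside each name stand the hosts among the listed genes that could host, and the dashed line is the value over all, 7.68. Channel genes lie to its right at 11.9 and genes of tissues not sampled to its left at 5.17.

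The longest genes that could host and held no member included LOC113457658 (1206 kb on linkage group LG4), of which only 62.7 kb was over 25 kb from every gene end because other genes lie within it. It had 17 peaks, none of them deep. The other 4 had no peak at all. They were Tenm1 (825.6 kb) and the formin gene Diaph2 (793.6 kb), both on the X, Agbl1, a carboxypeptidase that trims glutamate chains (703.6 kb, chromosome 22), and Hpse2, of the heparanase family (628.0 kb, chromosome 8).

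The X chromosome, of which males carry a single copy, held 13 members in 9 of its 97 genes that could host. That was 1.44 per Mb of deep interior (exact Poisson interval 0.765 to 2.46), below each of the 27 other sequences, whose median was 7.65 per Mb (range 5.18 to 11.1). The X had few peaks of any kind, 62 in all. Its hosts included Gpm6b, a proteolipid of neurons and glia, and Cnksr2, a postsynaptic scaffold, with 2 members each. The Gpm6b members had 3.32-fold and 3.18-fold enrichment. The X member in Phex, with 168 fragments over a background of 91.7, was the one on this chromosome with a raised background. On the autosomes, linkage group LG8 had the lowest density (5.18 per Mb) and LG5 the highest (11.1 per Mb).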

How the data were processed

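The authors called peaks in paired-end mode with MACS 2.0.10.20131216, setting 1 ChIP against 1 input library, with a q cutoff of 0.05 and broad calling off, per the file headers. The submitters' processing notes list BWA 0.7.12 and SAMtools 0.1.19, while the file headers name a Stampy alignment. The sources used here do not name the genome build. The deposited signal is the pileup of ChIP fragments at the summit. The deposited fold is the ratio of that pileup to a background from the scaled input, with 1 added to both. The deposited −log10 q is the caller's value after correction and served only to rank peaks.

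Gene positions came from a RefSeq table of MicOch1.0. Sequence names matched, and the bands 1 to 2.5 kb from gene ends held 2470 peaks but only 1187 to 1371 once peaks were shifted by 10 to 200 kb. Unplaced sequences, chromosome 14 and chromosome 6 below 20 Mb were left out. The 28 sequences are 18 named chromosomes and 10 linkage groups. Background was taken as the pileup plus 1, divided by the fold, less 1, and counted as lowest within 0.1%. The longest gene at a midpoint was the host, and 6 members lay in overlapping genes. No coordinates of the gene table are given.

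Shares have Wilson, densities exact Poisson and medians order-statistic intervals, all at 95% and for counting error only. The rule was tested on simulated peaks placed in the real genes. Genes were named by rule: the 10 hosts with most members, the 10 longest and 5 shortest hosts, hosts of the 10 highest folds, the 5 longest genes without a member, and listed genes. Genes rich in peaks without a member, those in high-background, most isolated and deepest places, and the X hosts were picked after their values were seen. The members and lists were chosen with earlier results of these data known. Work was done in Python 3.11.15 with pandas 2.3.3 and SciPy 1.17.1.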

Additional observations from a re-analysis of the deposited data

Results flagged for a closer look

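Peaks on sequences that could not be matched to genes numbered 9216, and 3600 of them were under 1000 bp and solitary. These 3600 drew attention because the caller listed them over the input and no comparison here used them. Their median fold was 2.77 and their median width 392 bp. The background was over 5 times the lowest at 135 of them (3.75%), and the highest fold was 26.9.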

How the results depend on the processing

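The 9 summary values (members, hosts, share of hosts with 1 member, median host length, share of genes that are hosts, density, and median fold, width and pileup) were recomputed under 12 settings, of which 10 were listed in advance and 2, without high-background peaks and without the X, were added after the data were seen. Of 108 values, 66 stayed within the counting interval of the value reported (counts within 1.5 times) and 42 moved, since most settings change which peaks are members. With summits for midpoints, ends of genes of every type, named chromosomes only, and both added settings, none of the 9 moved. With solitude judged at 5000 bp there were 4416 members (44.4% of hosts with 1, median host 156.2 kb, 42.9% of genes hosts, 12.7 per Mb, 396.5 bp). With 25000 bp there were 1488 (64.4%, 204.9 kb, 24.3%, 4.29 per Mb). With a depth of 10 kb, 59.0% of hosts had 1, the median host was 128.6 kb, 26.5% of genes were hosts and the density was 7.29 per Mb. With 50 kb there were 691 hosts (47.3% with 1, 272.4 kb, 42.5% of genes). Peaks above the list's median q rank gave 1056 members in 686 hosts (70.3% with 1, 215.6 kb, 20.3% of genes, 3.04 per Mb, 3.18-fold, 461 bp, 24 fragments). With solitude judged among those peaks alone it gave 1761 members (60.7%, 28.5%, 5.08 per Mb, 3.17-fold, 474 bp, 24 fragments). A width limit of 500 bp gave 59.9% of hosts with 1, 197.3 kb, 28.7% of genes, 5.41 per Mb, 2.74-fold, 340 bp and 20 fragments. No paired analysis was possible because there was 1 library of each kind, and no library could be left out.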
